A study of Homo sapiens with 17 samples.

Results

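The mRNAs examined come from 7 genes for replication-independent histone variants, each counted here as 1 variant, which encode the proteins H2A.Z (H2AZ1 and H2AZ2), H2A.X (H2AX), H3.3 (H3-3A and H3-3B), H1.10 (H1-10) and macroH2A1 (MACROH2A1). They were taken by gene symbol from the table of normalized EPKM, a rate of RNA edits per length and sequencing depth, and all 7 were found among its 18869 genes. Replication-dependent histone mRNAs are made in S phase from intronless genes and end in a conserved stem-loop without a poly(A) tail. Variant histone mRNAs are in general made throughout the cell cycle and end in a poly(A) tail, to which the nuclear poly(A) binding protein PABPN and the cytoplasmic PABPC can bind. H2AX is a known exception, with an mRNA form that ends at a stem-loop and a longer polyadenylated form.

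HEK293T, a widely used human cell line of embryonic kidney origin, carried a doxycycline-inducible construct for the C-to-U editing enzyme APOBEC1, either fused to the ribosomal protein RPS2 (RPS2-STAMP) or alone (Control-STAMP). Induction was for 24 h at 50 ng/mL doxycycline, cells were crosslinked in 0.1% formaldehyde, and RNA was sequenced from the Input and from IPs of PABPN and PABPC. Of 17 samples, RPS2-STAMP had 3 in every fraction, and Control-STAMP had 3 of the Input, 3 of the PABPN IP and 2 of the PABPC IP. The study describes its lysate as cytoplasmic, which the sample labels do not state. The deposited values are pooled, with 1 EPKM and 1 average TPM (a transcript level scaled by length and library size) per gene and fraction, so no SD, n or p-value can be given and no difference between fractions has a replicate check. The number of reads and edits behind each value is unknown.

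The 3′ ends of the 7 mRNAs differ in the annotation, and sequences are shown around the stem-loop, which separates H2AX from the other variants, and around the polyadenylation signal, which H2AX carries as well. A histone stem-loop was searched after the stop codon as GGNNNTNNTNANNNCC with 6 paired bases on each side of a loop of 4, G-T pairs allowed, on the transcribed strand. Among the 7 canonical transcripts, 1 held it, that of H2AX, beside 55 of 55 replication-dependent histone transcripts and 108 of 13379 other protein-coding transcripts (0.807%). In H2AX (ENSG00000188486, a gene of 1 exon on chromosome 11 of hg38 from 119093874 to 119095465, minus strand) the stem-loop lies 49 bases after the stop codon and 1024 bases before the annotated end. In the replication-dependent histones the median distance from stem-loop to annotated end was 5 bases, and 54 of 55 lay within 50 bases of it. The stem-loop of H2AX (chr11:119094893-119094918, minus strand, 3′ UTR) is shown with those of the replication-dependent H2BC12 (chr6:27146361-27146386, minus strand) and H4C2 (chr6:26026896-26026921, minus strand), with the 16 bases of stem and loop in capitals.
H2AX: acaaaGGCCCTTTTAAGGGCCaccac
H2BC12: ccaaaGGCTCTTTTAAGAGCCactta
H4C2: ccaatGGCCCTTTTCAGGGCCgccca

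A polyadenylation signal, AATAAA or ATTAAA on the transcribed strand, was present in the last 50 bases of 5 of the 7 variant transcripts, against 10848 of 13441 listed protein-coding transcripts (80.7%) and 3 of 55 replication-dependent histones. The canonical transcripts of H2AZ2 and MACROH2A1 did not hold these letters in that window. The windows of H2AZ1 (chr4:99948088-99948112, minus strand), H2AX (chr11:119093874-119093903, minus strand) and H1-10 (chr3:129314771-129314797, minus strand), all in the 3′ UTR, carry the signal in capitals.
H2AZ1: agttcAATAAAggtcatatcccaaa
H2AX: attttATTAAAggattgttttttttttaaa
H1-10: ggcacAATAAAgcgtttaaacctttca

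**Figure D1:**
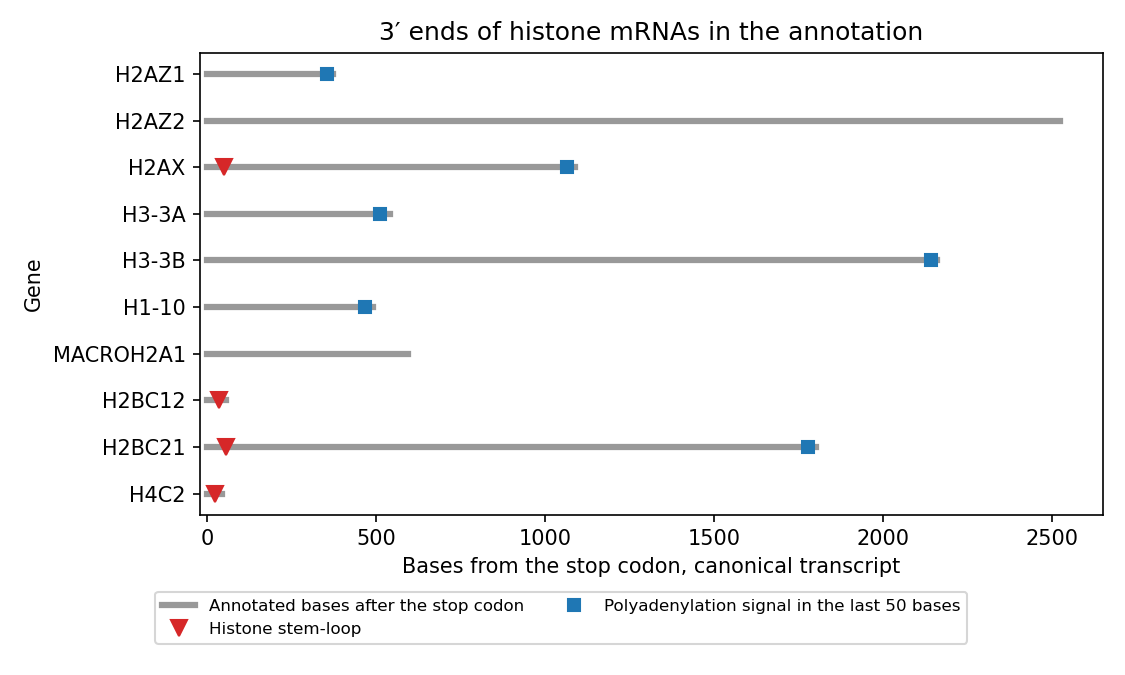
Bases after the stop codon of the canonical transcripts of the 7 variants and of 3 replication-dependent histones (x axis, bases from the stop codon), with the stem-loop as a triangle and the polyadenylation signal as a square. H2AX carries the stem-loop 49 bases after the stop codon and the signal 25 bases before the end, and the replication-dependent H2BC21 also carries both.

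The genes also differ in structure. H1-10 (ENSG00000184897, chromosome 3 from 129314771 to 129316286), a linker histone, has 1 exon like H2AX. H2AZ1 (ENSG00000164032, chromosome 4 from 99948086 to 99950355) and H2AZ2 (ENSG00000105968, chromosome 7 from 44826791 to 44848087) have 5 exons each but span 2270 and 21297 bases. H3-3A (ENSG00000163041, chromosome 1 from 226061851 to 226072019) and H3-3B (ENSG00000132475, chromosome 17 from 75776434 to 75785893) have 4 exons each. MACROH2A1 (ENSG00000113648, chromosome 5 from 135334381 to 135399914), whose protein has a large non-histone domain, has 9 exons over 65534 bases. On the opposite strand, H1-10-AS1 overlaps 59.0% of H1-10, PITX1-AS1 36.4% of MACROH2A1, H2AZ1-DT 15.4% of H2AZ1 and UNK 11.5% of H3-3B, and the strand setting of the counting is not given in the sources used here. The counting left out regions shared by genes.

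H3-3A and H3-3B are known to encode the same protein from different coding sequences, so their mRNAs can be told apart by sequence. Their coding sequences of 411 bases differ at 88 bases (78.6% identity) in 79 of 137 codons, and the longest exact stretch their transcripts share is 14 bases. The first 60 coding bases of H3-3A (chr1:226064352-226064411, plus strand) and H3-3B (chr17:75779115-75779174, minus strand) are given with the 13 differing bases in capitals.
H3-3A: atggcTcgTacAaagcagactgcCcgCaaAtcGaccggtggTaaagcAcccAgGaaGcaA
H3-3B: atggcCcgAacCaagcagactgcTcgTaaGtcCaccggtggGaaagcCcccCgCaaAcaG
H2AZ1 and H2AZ2 differ at 76 of 387 coding bases (80.4% identity), with a longest shared stretch of 23 bases. The processed pseudogenes are closer: H3P6 shares an exact stretch of 411 bases with the H3-3A transcript, H3P16 one of 198 and H3P36 one of 174, all longer than the reads of 100 bases. Values for H3-3A are therefore uncertain where reads could be split with these copies.

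In transcript level the 7 mRNAs covered a wide range, and most were abundant. In the Input, average TPM, which is scaled by length, was 650 for H2AX, 555 for H2AZ1, 189 for H1-10, 125 for H3-3B, 80.8 for H3-3A, 74.1 for H2AZ2 and 27.0 for MACROH2A1. H2AX, whose protein is phosphorylated beside DNA breaks, was thus the most abundant variant mRNA there, above 99.0% of the 9607 protein-coding genes (PCGs) that reached 5 TPM in each IP. In the PABPC IP, H2AZ1 was highest at 1491, followed by H2AX at 780, H1-10 at 460, H3-3B at 309, H3-3A at 204, H2AZ2 at 158 and MACROH2A1 at 61.5. The PABPN IP gave 518 for H2AZ1, 475 for H2AX, 309 for H1-10, 225 for H2AZ2, 140 for H3-3B, 111 for H3-3A and 61.8 for MACROH2A1. H2AZ1 exceeded H2AZ2 by 7.49 times (Input), 9.43 times (PABPC IP) and 2.30 times (PABPN IP). H3-3B exceeded H3-3A by 1.55, 1.51 and 1.27 times. No spread between samples is at hand to say which neighbours in these orders differ.

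**Figure D2:**
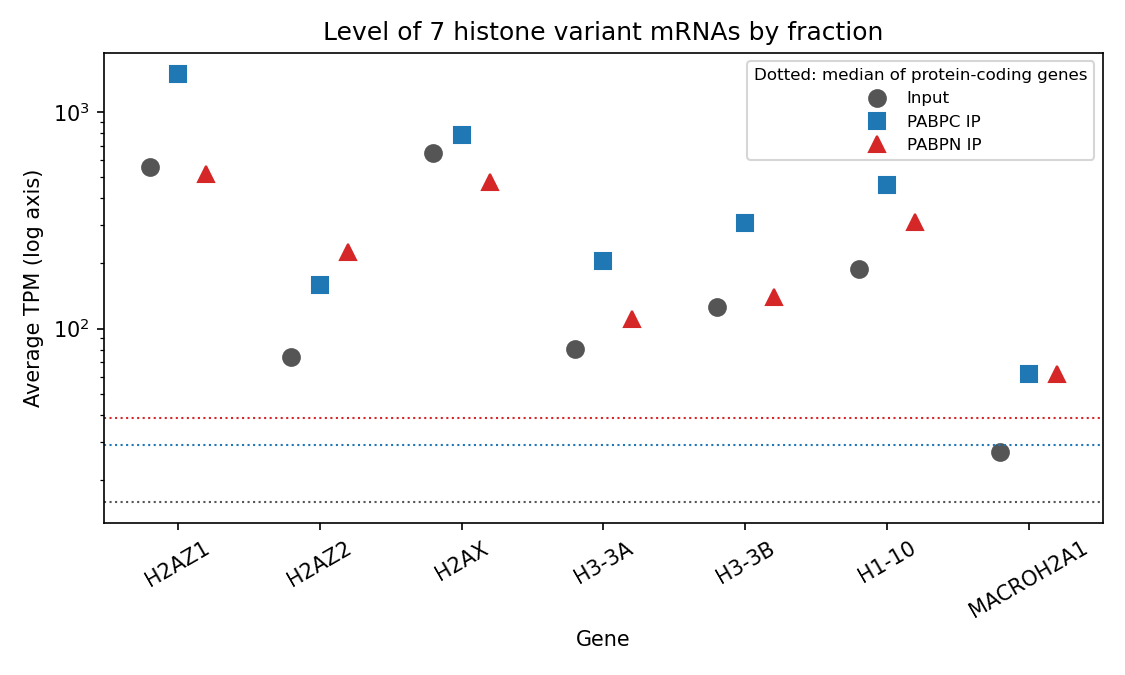
Average TPM (log axis) of each variant mRNA by fraction, with 1 pooled point each and dotted lines at the medians of the 9607 PCGs. H2AZ1 spans 518 to 1491 TPM, and H2AZ2 is highest in the PABPN IP at 225.

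To ask how the variant mRNAs associated with each PABP, log2 ratios of TPM in an IP over the Input were centred on the median over PCGs, which was 0.99 for the PABPC IP and 1.14 for the PABPN IP, and a gene past 0.5 from that median was counted. In the PABPC IP, 0 of 7 variants were higher (8.37% of PCGs) and 1 of 7 was lower (18.1% of PCGs). That variant was H2AX, at -0.72, while the other 6 lay between 0.10 for H2AZ2 and 0.44 for H2AZ1. In the PABPN IP, 0 of 7 were higher (24.5% of PCGs) and 4 of 7 were lower (21.6% of PCGs), namely H2AX at -1.59, H2AZ1 at -1.24, H3-3B at -0.97 and H3-3A at -0.68. H1-10 at -0.43, MACROH2A1 at 0.06 and H2AZ2 at 0.47 stayed inside the threshold. Both comparisons share the Input. Without centring, 6 of 7 were higher (81.3% of PCGs) and 0 lower (0.885% of PCGs) in the PABPC IP, where H2AX turned to 0.26, and 3 of 7 were higher (84.6% of PCGs) and 0 lower (0.583% of PCGs) in the PABPN IP, where H3-3A turned to 0.46, H3-3B to 0.17 and H1-10 to 0.71.

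Beside these, replication-dependent histone mRNAs were far lower in both IPs. Of 53 with a TPM above 0 in both fractions, 51 were lower in the PABPC IP (18.1% of PCGs), with a median of -4.16. Of 54 in the PABPN IP, 51 were lower (21.6% of PCGs), with a median of -4.51. Among the 37 that reached 5 TPM in each IP, all 37 were lower in each IP, and the medians were -4.17 and -4.67. H2AX lay between these genes and the other variants in the PABPC IP, 2.04 times below the median of the other 6 and 10.9 times above the median of the 37. In the PABPN IP it was 2.05 times below the former and 8.44 times above the latter, although H3C6, the least depleted of the 37, was at -1.35 there, above H2AX. How much of the H2AX signal comes from each of its mRNA forms was not tested.

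**Figure D3:**
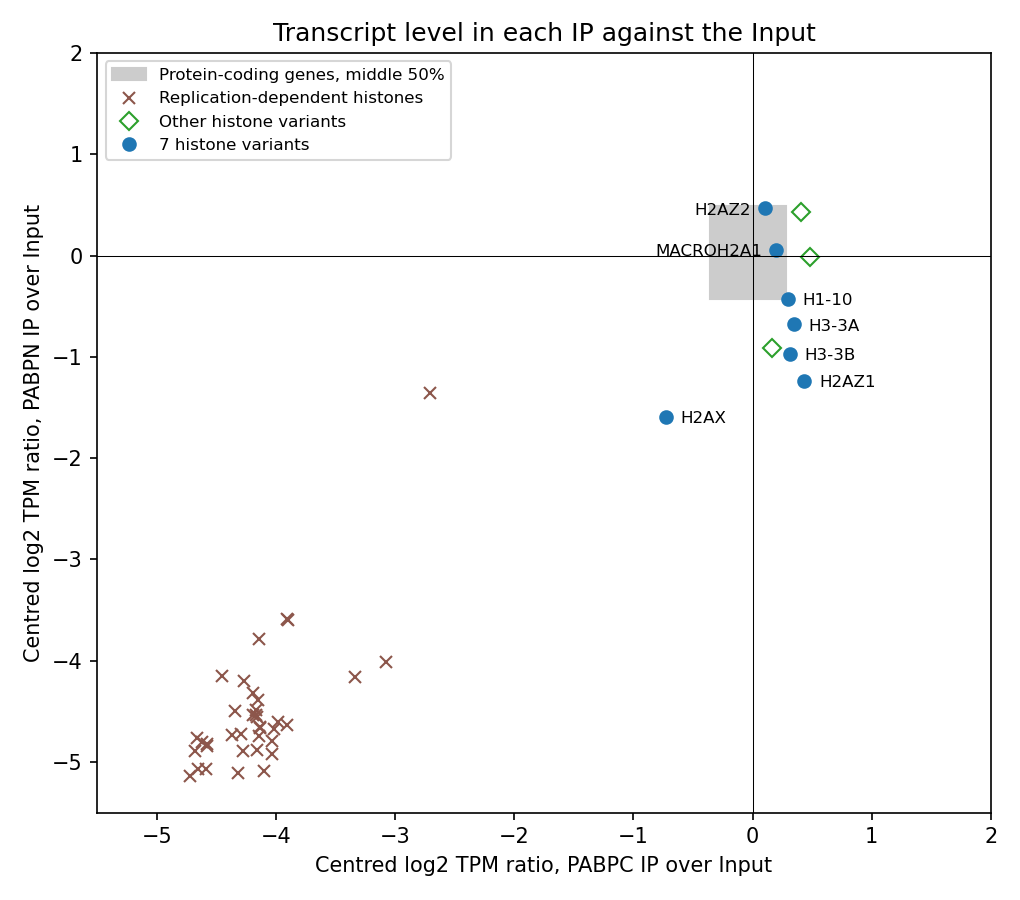
Centred log2 TPM ratios over the Input for the PABPC IP (x axis) and the PABPN IP (y axis), with 7 variants as filled circles, 3 other variants as diamonds, 37 replication-dependent histones as crosses and the quartile range of PCGs as a grey box. H2AX sits at -0.72 and -1.59, apart from the other variants along the x axis and from most crosses. Along the y axis H2AZ1 is near it, at -1.24.

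Comparing the IPs with each other, 5 of 7 variants were past 0.5 towards the PABPC IP (30.4% of PCGs) and 0 of 7 towards the PABPN IP (31.5% of PCGs). The centred log2 ratio of PABPC IP over PABPN IP was 1.72 for H2AZ1, higher than in 99.0% of PCGs, then 1.33 for H3-3B, 1.07 for H3-3A, 0.91 for H2AX and 0.77 for H1-10. MACROH2A1 at 0.19 and H2AZ2 at -0.32 were not past it, and these are the variants with the longest gene spans. Over PCGs the median ratio was 0.63 for 815 genes spanning under 5 kb, 0.28 for 2676 spanning 5 to 20 kb and -0.18 for 6110 spanning over 20 kb, while 201 genes of 1 exon had a median of -0.13. The shortest variant genes, H1-10 and H2AX, were not those with the highest ratios. TPM here includes intronic reads, and the part of gene span in the ratio was not tested. Without centring, 5 of 7 were past the threshold towards the PABPC IP (23% of PCGs) and 1 of 7, H2AZ2, towards the PABPN IP (37.6% of PCGs). Centred on every listed gene, an alternative chosen after seeing the data, MACROH2A1 was at 0.56, past the threshold, and H2AZ2 at 0.06.

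Editing, the measure of ribosome contact, was high on the variant mRNAs in the Input. A normalized EPKM has the control editing subtracted and holds no value below 0. Input EPKM was 0.658 for H2AZ1, 0.443 for H3-3A, 0.249 for H2AZ2, 0.240 for H2AX, 0.233 for H3-3B, 0.162 for H1-10 and 0.100 for MACROH2A1. The median of 0.240 compares with 0.0273 over PCGs, and the 7 values were higher than in 82.0% of PCGs (MACROH2A1) to 99.4% (H2AZ1). Over the 1922 PCGs in the top 20% of Input TPM, 43.1 or more, the median was 0.126. The values of MACROH2A1 and H2AZ1 were higher than in 40.7% and 97.1% of these, and MACROH2A1 alone lies below the median. With an Input TPM of 27.0, MACROH2A1 is itself outside that set, so it is ranked there against more abundant mRNAs.

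In the PABPC IP, the EPKM was 0.806 for H2AZ1, 0.345 for H3-3A, 0.268 for H2AX, 0.106 for H1-10, 0.0881 for H3-3B, 0.0688 for MACROH2A1 and 0.0354 for H2AZ2. The median of 0.106 stood beside 0.0501 over PCGs and 0.116 over the PCGs of highest Input TPM, and the mean of the 7 was 0.245 against 0.0719 over PCGs. In the PABPN IP, H3-3B was highest at 0.295 and H3-3A next at 0.223, so both mRNAs for H3.3 stood above the rest. MACROH2A1 was at 0.0346, H2AZ1 at 0.0339 and H2AX at 0.0225, beside a PCG median of 0.0334 and one of 0.0613 over the PCGs of highest Input TPM, and H2AZ2 and H1-10 were listed at 0. A listed 0 was common there, since 72.9% of PCGs were above 0.

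**Figure D4:**
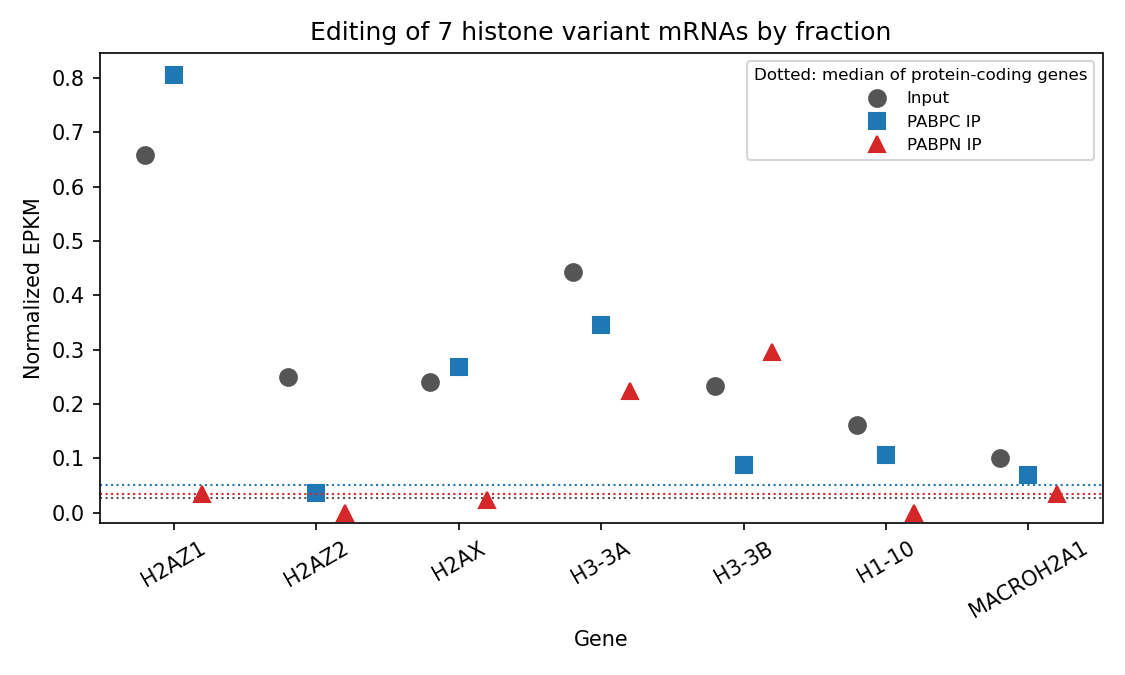
Normalized EPKM of each variant mRNA by fraction, with 1 pooled point each and dotted lines at the PCG medians. H2AZ1 reaches 0.806 in the PABPC IP against 0.0339 in the PABPN IP, and H3-3B alone is highest in the PABPN IP, at 0.295.

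Between the IPs, 4 of 7 variants were higher by 2-fold or more in the PABPC IP on the log2(EPKM + 0.01) scale (36.3% of PCGs) and 1 of 7 was higher by as much in the PABPN IP (21.1% of PCGs). H2AZ1 had the widest gap, 4.22 on that scale, with deposited values 23.8 times apart. H2AX followed the same direction with a difference of 3.10 and values 11.9 times apart. H1-10 at 3.54 and H2AZ2 at 2.18 were counted as higher, but both are listed at 0 in the PABPN IP, so no fold is given. With a pseudocount of 0.1, 3 of 7 were higher in the PABPC IP (9% of PCGs), and H2AZ2, at 0.44, was no longer counted. H3-3A at 0.61 and MACROH2A1 at 0.82 were within 2-fold. H3-3B went the opposite way, at -1.64. Of the genes for H3.3, H3-3B alone thus passed the threshold. EPKM of H3-3A was 3.92 times that of H3-3B in the PABPC IP, 1.90 times in the Input and 0.756 times in the PABPN IP. EPKM is not divided by transcript level, and the part of transcript level in these gaps was not tested. Without centring, the TPM ratio of PABPC IP over PABPN IP was 2.88 for H2AZ1, 2.20 for H3-3B, 1.84 for H3-3A and 1.64 for H2AX. It was 1.49 for H1-10, 0.995 for MACROH2A1 and 0.702 for H2AZ2.

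Against the Input, 0 of 7 variants were higher by 2-fold or more in the PABPC IP (35.1% of PCGs) and 2 of 7 were lower by as much (19.5% of PCGs), H2AZ2 at -2.51 and H3-3B at -1.31. In the PABPN IP, 0 of 7 were higher (28.4% of PCGs) and 5 of 7 were lower (29.6% of PCGs). The latter were H2AZ2 at -4.69 and H1-10 at -4.10, both listed at 0 in that IP, H2AZ1 at -3.93, H2AX at -2.94 and MACROH2A1 at -1.30. H3-3A at -0.96 and H3-3B at 0.33 were within 2-fold. With a pseudocount of 0.1, 1 of 7, H2AZ2, was lower in the PABPC IP (4.26% of PCGs) and 4 of 7 were lower in the PABPN IP (7.11% of PCGs), where MACROH2A1 was at -0.57.

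Editing was listed at 0 in the PABPC IP for 3 other histone variants, CENPA, MACROH2A2 and H2AJ. All 7 variants above were higher than 0 there, as were 82.6% of PCGs. CENPA, the centromeric H3, had an EPKM of 0.0288 in the Input and 0.372 in the PABPN IP. In the annotation, SLC35F6 overlaps 46.1% of CENPA on the same strand, and AIFM2 23.5% of MACROH2A2 on the opposite strand. MACROH2A2 was listed at 0 in all 3 fractions in spite of an Input TPM of 86.4, which is 3.20 times that of MACROH2A1. H2AJ had 0.00608 in the Input and 0.00486 in the PABPN IP. Its TPM of 3.27 (PABPC IP) and 3.68 (PABPN IP) lay below the 5 TPM required of PCGs. H3-5 was not among the genes listed.

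A list of 24 factors that deposit, exchange or chaperone histones, not all of them particular to variants, was also examined. Of these, 6 had an EPKM higher by 2-fold or more in the PABPC IP than in the PABPN IP (36.3% of PCGs). In the same comparison 8 had a lower one (21.1% of PCGs). The median EPKM of the 24 was 0.0590 (Input), 0.0989 (PABPC IP) and 0.0939 (PABPN IP). HIRA, an H3.3 chaperone, had 0.0652, 0.208 and 0.0998 in that order, with deposited values 2.09 times apart between the IPs. With the pseudocount its log2 difference was 0.99, just within 2-fold, so HIRA was not counted as higher in the PABPC IP. UBN1, which acts with HIRA, was lower in the PABPC IP at -2.04 on the same scale, as was ASF1A at -1.64. VPS72, an H2A.Z chaperone, was listed at 0 in the Input and PABPN IP and had 0.163 in the PABPC IP. In transcript level, 7 of the 24 were past 0.5 towards the PABPC IP (30.4% of PCGs) and 10 towards the PABPN IP (31.5% of PCGs), from ASF1B at 1.20 to ATRX at -2.53 and UBN2 at -2.56. Of 10 stem-loop processing factors, 4 had an EPKM higher by 2-fold or more in the PABPC IP and 2 a lower one, shares near those of PCGs (36.3% and 21.1%), while SLBP, which binds the stem-loop, had 0.117 in the Input and a listed 0 in both IPs. By TPM 2 of the 10 were past 0.5 towards the PABPC IP and 5 towards the PABPN IP, against 30.4% and 31.5% of PCGs.

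The PCG nearest to each variant over 6 values, the logged EPKM and TPM in 3 fractions, was RPS16 for H2AZ1 (distance 0.53), RPL22L1 for H3-3A (0.50), PPIB for H3-3B (0.61), DTYMK for H2AZ2 (0.75), TXN2 for H1-10 (0.23) and BSCL2 for MACROH2A1 (0.44). H2AX had the most distant neighbour, RAB1B at 1.38, with a TPM of 273 (Input), 670 (PABPC IP) and 345 (PABPN IP). Among markers of the line, VIM had an Input TPM of 184 and NEFL one of 26.9, NEFM was listed below NEFL, and the renal factor PAX2 was at 0.797. Of markers not expected, COL1A1 was at 1.90 and PTPRC and ALB were not listed.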

How the data were processed

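Per the submitters' notes and the study's methods, the authors used STAR for alignment to hg38 and counted reads with featureCounts 2.0.2 on a modified GENCODE annotation. The deposited normalized EPKM is a signal from which the authors subtracted editing in the control condition, and how values below 0 were handled and replicates combined is not given in the sources used here. The deposited TPM is the authors' average of exonic plus intronic TPM, and which samples were averaged is not given. The study gives library sizes, but the files hold no reads or edits per gene. Because values are pooled, the designs set for single samples could not be run and differences are described without a test. EPKM was compared as log2(EPKM + 0.01) with a 2-fold threshold. TPM was compared as log2 ratios without a pseudocount, centred on PCGs, with a threshold of 0.5. Percentiles are shares of PCGs with a lower value. Members and lists were chosen with earlier results of these data known. Genes named are the members, the listed genes, pseudogenes of members and the nearest PCG by Euclidean distance. Pseudogenes were found through RefSeq synonyms (GRCh38.p14), a step added because the table uses newer symbols, and the antisense and divergent loci, H3C6, H2BC21 and the printed stem-loops of H2BC12 and H4C2 were chosen after the data were seen. Of 18869 genes, 18806 were found by identifier in GENCODE release 44 (hg38), the source of transcripts, as were 55 of 57 replication-dependent histones, and printed stretches were checked against the hg38 sequence. Protein sequences were not used here. Alternatives changed the pseudocount, thresholds, centring, gene set and summary. An alternative tried after the data were seen, and the gene it used, are not reported here. Steps were tested on simulated data. Python 3.11.15, NumPy 2.4.6, pandas 2.3.3 and matplotlib 3.10.9 were used.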

Additional observations from a re-analysis of the deposited data

Results flagged for a closer look

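Loci related to the variants, outside the comparisons made, were listed with an EPKM above 0 after control editing was subtracted. Reads of H3-3A can match H3P6, H3P16 and H3P36 exactly, and their part in these values was not tested. The H3.3 pseudogene H3P16 had a normalized EPKM of 0.496 in the PABPN IP, against 0.158 (PABPC IP) and 0.0136 (Input). The pseudogene H3P6 had 0.387 (Input), 0.336 (PABPC IP) and 0.288 (PABPN IP), near the values of H3-3A, and no TPM was listed for it. H3P36 was above 0 in the Input alone, at 0.0475. The antisense H1-10-AS1 reached 0.0266 in the PABPN IP. Divergent transcripts gave 0.0380 for H2AZ1-DT and 0.00595 for H3-3A-DT in the PABPN IP, with 0 in the other fractions. Input TPM was 7.29 for H3P16, 0.989 for H3P36, 1.98 for H1-10-AS1, 0.283 for H2AZ1-DT and 1.00 for H3-3A-DT, below the PCG median of 15.8. In that order TPM was 23.4, 2.14, 5.68, 0.232 and 0.962 in the PABPC IP. In the PABPN IP it was 9.04, 1.29, 6.79, 2.09 and 4.57.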

How the results depend on the processing

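No paired analysis was possible because values of single replicates are not given, and for the same reason leaving out replicates was not run. Of 36 alternative counts, 26 were unchanged or within 1.5 times and 10 were not, and the 6 alternative medians differed at 3 significant digits. With the mean in place of the median over the 7 variants, EPKM was 0.298 (Input), 0.245 (PABPC IP) and 0.0870 (PABPN IP), beside PCG means of 0.0634, 0.0719 and 0.0520. Without centring, 6 were higher (81.3% of PCGs) and 0 lower (0.885% of PCGs) in TPM in the PABPC IP over the Input. In the PABPN IP over the Input, 3 were then higher (84.6% of PCGs) and 0 lower (0.583% of PCGs). In the PABPC IP over the PABPN IP, 1 was lower without centring (37.6% of PCGs). Centred on every listed gene, 1 (H2AZ1) was higher in the PABPC IP over the Input (13.4% of PCGs) and 5, now with H1-10, were lower in the PABPN IP over the Input (37.6% of PCGs). Between the IPs, where this centring was chosen after seeing the data, 6, now with MACROH2A1, were higher with PABPC (45.2% of PCGs). With a threshold of 1, 2 were lower in the PABPN IP (5.15% of PCGs) and 0 in the PABPC IP over the Input (4.42% of PCGs), and 3 were higher in the PABPC IP over the PABPN IP (12.7% of PCGs). With an EPKM pseudocount of 0.1, 1 was lower in the PABPC IP over the Input (4.26% of PCGs). Over genes that reached 5 TPM in each IP, the median centred ratio of replication-dependent histones over the Input was -4.17 (PABPC IP) and -4.67 (PABPN IP), and 0.44 between the IPs. Of 42 percentiles of single variants over other gene sets, 37 differed at 3 significant digits and 5 did not. Over the top 20% of Input TPM, that of MACROH2A1 in the Input went from 82.0 to 40.7. In the PABPC IP, that of H2AZ2 went from 40.4 to 19.8, H3-3B from 70.3 to 37.9, H1-10 from 77.5 to 46.1 and MACROH2A1 from 61.5 to 31.0. MACROH2A1, with an Input TPM of 27.0, lies below the lowest value of that set, 43.1. Causes beyond the altered setting were not tested. Reads per gene are not given, so counting error cannot be stated.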

Other observations

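Summed over genes, the 57 replication-dependent histones took 6.87% (Input), 0.693% (PABPC IP) and 0.591% (PABPN IP) of the TPM. The 7 variants took 0.199%, 0.348% and 0.189%. The summed TPM of the former was 34.5 times (Input), 1.99 times (PABPC IP) and 3.13 times (PABPN IP) that of the latter.

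H2BC21, chosen after its annotation was seen, is the replication-dependent histone whose canonical transcript, like that of H2AX, runs on past the stem-loop, by 1729 bases, to a polyadenylation signal. Its centred log2 TPM ratio over the Input was -4.17 (PABPC IP) and -4.53 (PABPN IP), against -0.72 and -1.59 for H2AX. Its TPM was 733 (Input), 81.0 (PABPC IP) and 69.8 (PABPN IP).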
